A study of Phyllostachys violascens with 18 samples.

Results

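Variant and typical mature bamboo leaves were compared through 6 RNA libraries, 3 of each plant type, out of 18 in the series. The comparison took in every gene with enough counts, 37595 of the 42520 in the table, and the 4925 others were left out for low counts. The series also holds young and immature leaves of both plant types, and all plants grew in a greenhouse. The series title names leaf coloration of the variant as the subject. The typical mature group was Phyllostachys violascens and the variant mature group was Phyllostachys violascens ‘Flavistriatus’, with no treatment named for either. The titles say leaf while the tissue field says culms, and the labels are silent on whether the libraries of a group are separate plants. A p-value here therefore covers just the spread among libraries, part of which may be technical. The fit behind most p-values estimates that spread over all 18 libraries of the series. RNA with a poly(A) tail was copied to cDNA and amplified from very small amounts of RNA, with no strand mark and no molecular identifiers.

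A green leaf builds its chloroplasts from proteins encoded in both nucleus and plastid. Nuclear genes supply the antenna proteins that hold chlorophyll, most photosystem subunits outside the core, the small subunit of Rubisco and the enzymes that fix carbon. In daylight part of the fixed carbon is stored as starch inside the chloroplast and part leaves as sucrose through the phloem. Variegated and yellow-striped plants carry tissue whose plastids hold less chlorophyll, and such tissue draws sugar from green cells. Messages for nuclear photosynthesis genes are known to fall when plastids are not fully formed, while cytosolic ribosomes, respiration and stress genes belong to other programmes. In whole-leaf RNA, fewer cells of a type and less RNA per cell cannot be told apart.

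The libraries held 30268130 to 50390394 counts. Leaf identity was checked on antenna genes, which took 3.12%, 3.44% and 3.42% of all counts in typical mature 1, 2 and 3, so RNA of green tissue was present, which does not part a leaf from a green culm. Below, values of a gene are FPKM as deposited, a level scaled for gene length and library size, and a set of 3 values is always given in the order of libraries 1, 2 and 3. Log2 fold changes are variant minus typical. The value after ± is an approximate standard error, the absolute log2 fold change divided by the square root of the edgeR F statistic. Scaling factors (TMM, which sets the bulk of genes level) were 0.80 to 0.86 in typical and 1.03 to 1.10 in variant libraries, so the ratio of FPKM lies above the tested fold. On log2(FPKM + 1) the median of all genes was 0.181 above 0, against 0.087 in the count fit, and changes are given relative to the bulk of genes.

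More genes were higher in variant mature leaves than lower. The edgeR test called 9224 genes (24.5%) at an adjusted p under 0.05, with 5595 higher (14.9%) and 3629 lower (9.65%). Of the calls 60.7% were higher, against 78.4% and 81% with limma on log2(FPKM + 1) and log2(FPKM + 0.1). The 24.5%, 14.9% and 9.65% are the background for every list below. The FPKM of the groups did not overlap for 4851 of the genes called higher and 2333 of those called lower, beside 29.4% of all genes tested with all 3 variant libraries above the typical ones and 8.16% with all 3 below. Of the 9224 calls, 4910 were made again in all 6 fits that left out a single library, 2921 higher and 1989 lower. Over all genes, 3718 were higher and 2667 lower without typical mature 2, and 4067 and 2867 without typical mature 3. They were 4921 and 3306 without typical mature 1, and 4882 and 3576 without variant mature 2. List counts from those fits are to be read beside these smaller totals. In a fit of the 6 mature libraries alone, 2641 of 31770 genes (8.31%) were called, 1454 higher (4.58%) and 1187 lower (3.74%). That fit has fewer samples and takes its spread from the mature groups only. Mean chi-square per gene, larger where 2 libraries of a group differ more, was 58.7, 249 and 326 for the variant mature pairs. It was 11.7 to 12.7 in variant immature and 10.1 to 28.7 in typical young leaves. Variant young pairs had 30.9 to 122 and typical immature pairs 119 to 158. Of the 124 genes named in the text, 120 were called with all libraries, and 50 of these calls were not made on the mature libraries alone. Among the 50 were most of the antenna and photosystem genes named, the Rubisco small subunit, aldolase, TOC1-like and both thaumatin-like genes. The cellulose synthase PH02Gene30488 and the fasciclin-like, COBRA-like 3, expansin-B3 and lipid-transfer genes named were also among them.

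Variant mature 3 stood apart from its group. On 23463 genes with enough counts, 17.0% lay at least 2-fold from the other 2 variant libraries, against 8.34% for variant mature 2 and 3.51% for variant mature 1. Typical mature 1, 2 and 3 had 7.11%, 0.375% and 2.18%. Typical mature 2 and 3 were much closer to each other than to typical mature 1, with a mean chi-square per gene of 13.6 against 169 and 222. Whether they are separate samples is not in the labels, so the typical group may hold less independent spread than its 3 libraries imply. The first principal component, with 42% of the variance, parted the plant types, and the second, with 28.1%, parted variant mature 3 from variant mature 1 and 2. Without variant mature 3 the edgeR test called 8652 genes (22.6%), 5429 higher (14.2%) and 3223 lower (8.41%), and 7089 of the 9224 calls were made again in the same direction. The 2135 calls that were not made again comprised 1225 higher and 910 lower. Variant mature 3 was below both other variant libraries in 32 of 34 antenna genes, 72 of 81 photosystem genes and 50 of 60 plastid ribosome genes, against 38.5% of all genes tested. It was above both in 251 of 296 cytosolic ribosome genes and 71 of 85 ribosome biogenesis genes, against 39.9% of all genes tested.

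**Figure D1:**
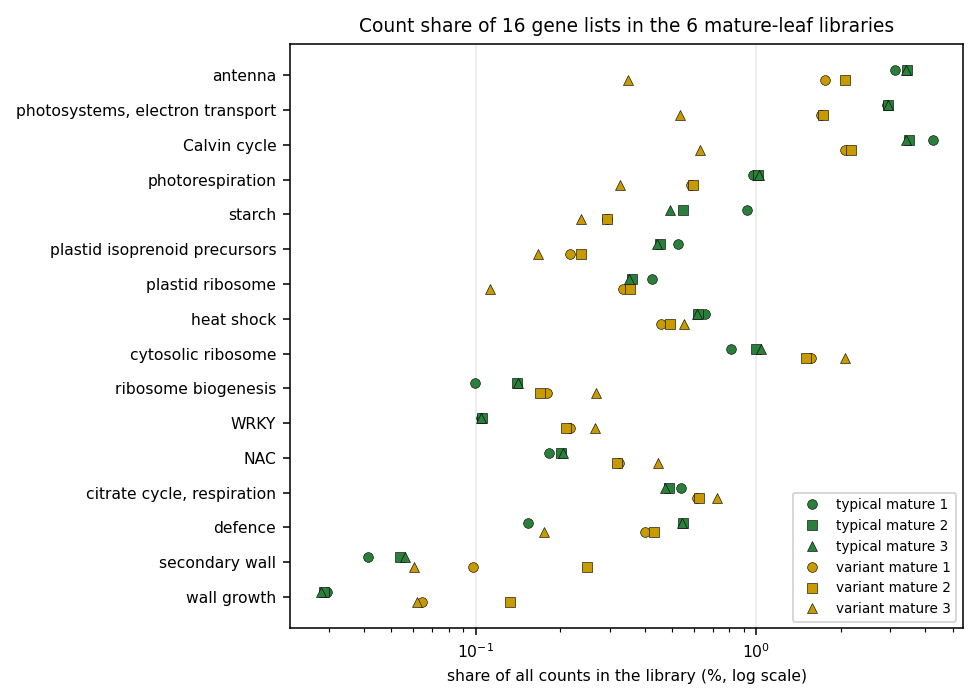
Share of all counts taken by 16 gene lists (horizontal log axis, percent) in each of the 6 mature-leaf libraries, typical in green and variant in yellow, with circle, square and triangle for libraries 1, 2 and 3. Variant mature 3 holds 0.350% of its counts in antenna genes, against 1.75% and 2.07% in the other variant libraries and 3.12% to 3.44% in the typical ones.

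Genes of the light reactions and of carbon fixation were lower in the variant, and the drop was deepest in variant mature 3 but present in the other variant libraries. Of 34 antenna genes tested (36 in the table), 22 were lower and 0 higher, with a median log2 fold change of -1.74 against 0.087 for all genes, and without variant mature 3 the numbers were 23 and 0 with a median of -1.21. The lower count was 13 without typical mature 2 and 14 without typical mature 3. Of 81 genes of photosystems and electron transport (86 in the table), 36 were lower and 2 higher, and 32 and 4 without that library. Of 54 Calvin cycle genes (56 in the table), 33 were lower and 2 higher, and 28 and 2 without it. Fitted on the mature libraries alone, 2 antenna, 7 photosystem and 13 Calvin cycle genes were called lower.

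Chlorophyll a-b binding protein 8 (PH02Gene45771), a photosystem I antenna protein, stood at 1831, 1975 and 1960 FPKM in the typical and 892.4, 1092 and 100.2 FPKM in the variant libraries. Variant mature 3 was far below the others, and variant mature 1 and 2 still lay below every typical library. The log2 fold change was -1.77 ± 0.54 (edgeR adjusted p = 0.0271), and -1.25 ± 0.23 (edgeR adjusted p = 0.00162) without variant mature 3. On the mature libraries alone the edgeR adjusted p was 0.19. The call was also lost without typical mature 2 or 3, with edgeR adjusted p = 0.0571 and 0.0537, and stood at the threshold without typical mature 1, at 0.05. The most abundant member, a chlorophyll a/b binding protein (PH02Gene04237), fell by 1.08 on the log2 scale (edgeR adjusted p = 0.0229), from 2258, 2708 and 2724 FPKM to 1738, 2052 and 713.4 FPKM. Without typical mature 2 or 3 its edgeR adjusted p was 0.056 and 0.0535, and on the mature libraries alone 0.173. The photosystem II 22 kDa protein (PH02Gene34222), the PsbS subunit that triggers heat dissipation of excess light, fell further than these. It stood at 228.1, 126.5 and 110.7 FPKM in the typical and 23.7, 33.9 and 8.43 FPKM in the variant libraries, a log2 fold change of -3.15 ± 0.41 (edgeR adjusted p = 0.000142).

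The photosystem II 10 kDa polypeptide (PH02Gene08265), a subunit near the water-splitting site, had 3648, 6651 and 7098 FPKM in the typical and 1595, 1565 and 347.7 FPKM in the variant libraries. The groups did not overlap, and the log2 fold change was -2.6 ± 0.44 (edgeR adjusted p = 0.000798, and 0.0563 on the mature libraries alone). The oxygen-evolving enhancer protein 1 (PH02Gene42972), which steadies the manganese cluster, had a log2 fold change of -2.09 ± 0.49, and -1.61 ± 0.27 without variant mature 3 (edgeR adjusted p = 0.00674 and 0.000752). A small subunit gene of Rubisco (PH02Gene30287) stood at 4392, 3687 and 3642 FPKM in the typical and 2428, 2406 and 814.7 FPKM in the variant libraries, and its log2 fold change was -1.37 ± 0.37 (edgeR adjusted p = 0.0155). Chloroplast fructose-bisphosphate aldolase (PH02Gene46367) and phosphoribulokinase (PH02Gene03788), which regenerate the carbon acceptor, fell by 2.41 and 1.84 on the log2 scale (edgeR adjusted p = 0.00383 and 0.0152). Against this direction, ferredoxin-6 (PH02Gene44826), an iron-sulfur electron carrier, rose. It had 17.4, 10.1 and 7.84 FPKM in the typical and 54.6, 33 and 384.3 FPKM in the variant libraries, with variant mature 3 far above the others, and the log2 fold change of 3.37 ± 0.66 became 1.57 ± 0.28 without that library (edgeR adjusted p = 0.00222 and 0.00127).

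Genes for the upstream steps of pigment and prenyl synthesis followed the same direction. Of 35 genes for plastid isoprenoid precursors and tocopherol (36 in the table), 16 were lower and 3 higher, and 13 and 3 without variant mature 3. The last enzyme of the plastid precursor pathway, 4-hydroxy-3-methylbut-2-enyl diphosphate reductase (PH02Gene06218, scaffold 15, 86797201 to 86800979), had 820.9, 639.8 and 594.5 FPKM in the typical and 168.4, 196.8 and 106.9 FPKM in the variant libraries. All variant libraries lay far below the lowest typical one, and the log2 fold change was -2.45 ± 0.27 (edgeR adjusted p = 4.73e-05). The enzyme before it, 4-hydroxy-3-methylbut-2-en-1-yl diphosphate synthase (PH02Gene28094), fell by 2.43 (edgeR adjusted p = 0.00029), and homogentisate phytyltransferase 2 (PH02Gene17890), of vitamin E synthesis, by 1.00 on the log2 scale (edgeR adjusted p = 0.00412). A geranylgeranyl pyrophosphate synthase (PH02Gene13327) stood at 6.55, 6.97 and 7.04 FPKM in the typical and 32, 31.9 and 5.64 FPKM in the variant libraries, so that variant mature 3 lay below the typical leaves and the other variant libraries far above. It rose by 1.45 on the log2 scale (edgeR adjusted p = 0.0254) and by 1.92 without variant mature 3 (6.24e-05 by the same test), and the call was lost without any 1 of the other 5 libraries, at edgeR adjusted p of 0.0581 to 0.0991.

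Of the tetrapyrrole genes, glutamyl-tRNA reductase 2 (PH02Gene41172), the entry enzyme, fell by 1.80 on the log2 scale, from 147.8, 131.9 and 126.5 FPKM in the typical to 55.5, 74.6 and 14.3 FPKM in the variant libraries (edgeR adjusted p = 0.00574). Among 15 chlorophyll breakdown genes (18 in the table), 5 were higher and 3 lower, so no direction is read from this list. Only 2 of these calls were made in all 6 fits that left out a library. Both were of lower genes, with log2 fold changes of -0.87 and -1.02, while the members described next were higher. STAY-GREEN LIKE (PH02Gene39882), a relative of the magnesium dechelatase that opens chlorophyll breakdown, had 7.73, 7.51 and 7.49 FPKM in the typical and 20.4, 17.9 and 10.5 FPKM in the variant libraries. Its log2 fold change was 0.79 ± 0.22 (edgeR adjusted p = 0.018), and the call was lost without typical mature 2 or 3 or variant mature 1 or 2, at 0.0575 to 0.084. The chlorophyll(ide) b reductase NOL (PH02Gene44921), which turns chlorophyll b back towards a, rose by 0.99 on the log2 scale (edgeR adjusted p = 0.0394), and held only when variant mature 3 was the library left out (0.00317, against 0.0862 to 0.198 without any other). The transcription factor GLK1 (PH02Gene18738), an activator of chloroplast genes, stood at 23.8, 38.5 and 39.7 FPKM in the typical and 13.6, 15.8 and 10.3 FPKM in the variant libraries. The groups did not overlap, and GLK1 fell by 1.67 on the log2 scale (edgeR adjusted p = 0.00331).

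Genes of plastid gene expression and protein upkeep moved less evenly than photosynthesis genes. Of 60 plastid ribosome genes (64 in the table), 5 were lower and 2 higher, a share of 8.33% lower that was near the background of 9.65%, and without variant mature 3 the numbers were 4 lower and 8 higher. Of 37 plastid transcription and regulator genes (39 in the table), 11 were lower and 2 higher. Of 111 genes of import, proteases and chaperonins (118 in the table), 26 were lower and 9 higher. The large-subunit protein L1 of the plastid ribosome (PH02Gene16107) had 411.3, 478.9 and 496.6 FPKM in the typical and 153.8, 173.9 and 74.1 FPKM in the variant libraries, a log2 fold change of -2.1 ± 0.29 (edgeR adjusted p = 0.000224). Sigma factor sigA (PH02Gene29411), which guides the bacterial-type plastid polymerase, fell by 1.16 (edgeR adjusted p = 0.00166). A Clp protease subunit (PH02Gene46806) fell by 1.36 and the Rubisco assembly chaperone RbcX 2 (PH02Gene06959) by 1.87 on the log2 scale (edgeR adjusted p = 0.000644 and 0.000562).

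**Figure D2:**
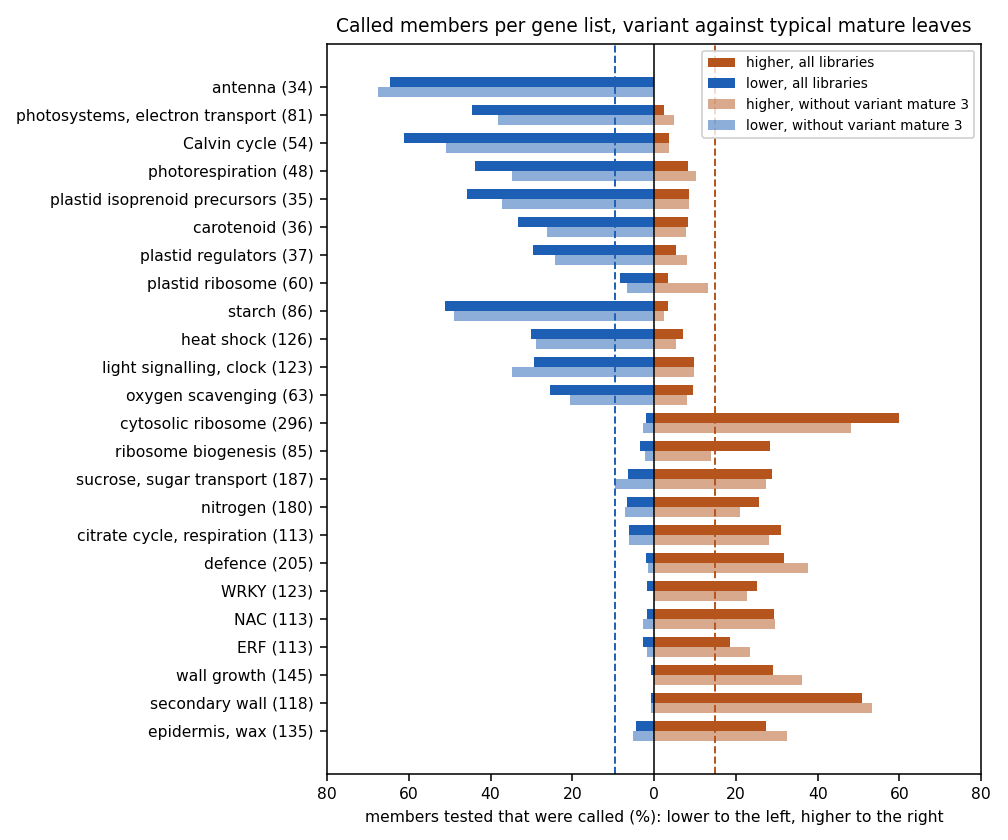
Percent of tested members called lower (left, blue) and higher (right, orange) in the variant for 24 gene lists, with the number tested in parentheses, from all libraries (dark) and without variant mature 3 (pale). Dashed lines mark the shares over all genes, 9.65% lower and 14.9% higher. Antenna, Calvin cycle and starch genes extend to the left and cytosolic ribosome and secondary wall genes to the right in both fits.

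Starch genes were lower in the variant, with and without variant mature 3. Of 86 starch genes (95 in the table), 44 were lower and 3 higher (51.2% and 3.49%), and 42 and 2 without variant mature 3, with medians of -1.22 and -1.33. Fitted on the mature libraries alone, 24 were lower and 1 higher. The list took 0.922%, 0.546% and 0.491% of counts in the typical and 0.294%, 0.294% and 0.238% in the variant libraries. Variant mature 3 was below both other variant libraries in 23 of the 86 genes and above both in 49.

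Granule-bound starch synthase 1b (PH02Gene37359, scaffold 4, 38026931 to 38034441), which makes amylose, had 694.2, 249.1 and 174.6 FPKM in the typical and 9.99, 26.3 and 14.8 FPKM in the variant libraries. Typical mature 1 was the highest of all, yet the lowest typical library still exceeded the highest variant one. The log2 fold change was -4.81 ± 0.58 (edgeR adjusted p = 8.47e-05), and -3.90 without typical mature 1. The large subunit of ADP-glucose pyrophosphorylase, the committed step of starch synthesis, fell at both genes named. The first (PH02Gene25500) had 120.3, 27.9 and 12.4 FPKM in the typical and 3.11, 1.32 and 6.13 FPKM in the variant libraries, a log2 fold change of -4.33 ± 0.73 (edgeR adjusted p = 0.000851), which was -2.80 without typical mature 1 and -4.96 without variant mature 3. The second (PH02Gene27242) fell by 1.63 (edgeR adjusted p = 0.00103). The branching enzyme rbe4 (PH02Gene06165) stood at 214.4, 100 and 80.3 FPKM in the typical and 30.9, 26.4 and 47.7 FPKM in the variant libraries with a log2 fold change of -2.27 ± 0.36, or -1.64 without typical mature 1 (edgeR adjusted p = 0.000516 with all libraries). The plastid starch phosphorylase (PH02Gene21678) had a log2 fold change of -3.93 ± 0.65, -2.61 without typical mature 1 and -4.55 without variant mature 3 (edgeR adjusted p = 0.000767 with all libraries).

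Neither starch breakdown gene described next was called in every fit. The glucan phosphatase DSP4 (PH02Gene41288), which helps to open the granule surface, rose by 0.57 on the log2 scale (edgeR adjusted p = 0.0161), and lost the call when typical mature 2, typical mature 3 or else variant mature 3 was left out, at 0.0586, 0.0698 and 0.0656. The most abundant starch-degrading gene, a beta-amylase (PH02Gene44774), had 453.4, 554.1 and 570.6 FPKM in the typical and 566.8, 561.8 and 116.6 FPKM in the variant libraries. Only variant mature 3 was low, and with a log2 fold change of -0.64 ± 0.41 the gene missed the threshold (edgeR adjusted p = 0.272).

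Sucrose and sugar transport genes were more often higher, though some members fell. Of 187 (219 in the table), 54 were higher (28.9%) and 12 lower (6.42%), and 52 and 18 without variant mature 3. Sucrose-phosphate synthase 1 (PH02Gene07232, scaffold 14, 80290649 to 80296311), which makes sucrose in source leaves, had 50.1, 73.7 and 75.7 FPKM in the typical and 14.3, 11.9 and 15 FPKM in the variant libraries. All 3 variant libraries were alike and low, and the log2 fold change was -2.59 ± 0.35 (edgeR adjusted p = 0.000174). The cell wall invertase BObetaFRUCT2 (PH02Gene30701), which splits sucrose outside the cell, stood at 41.4, 40 and 38.4 FPKM in the typical and 5.53, 2.41 and 1.36 FPKM in the variant libraries. Its log2 fold change was -4.0 ± 0.66, or -4.72 without variant mature 1 (edgeR adjusted p = 0.000714 with all libraries). Galactinol synthase 2 (PH02Gene36618), of the raffinose branch, fell by 1.63 (edgeR adjusted p = 0.000318).

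Other members of the list were higher. Sucrose synthase (PH02Gene09591), which cleaves sucrose inside the cell, had 25.7, 35.8 and 36.8 FPKM in the typical and 73.1, 60.8 and 70 FPKM in the variant libraries, a log2 fold change of 0.74 ± 0.17 (edgeR adjusted p = 0.00524). Sugar transport protein 1 (PH02Gene37329), a hexose importer, rose by 1.08 (edgeR adjusted p = 0.00644). Polyol transporter 5 (PH02Gene13320) rose by 1.15, or 0.70 without variant mature 3 (edgeR adjusted p = 0.00737 and 0.03).

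**Figure D3:**
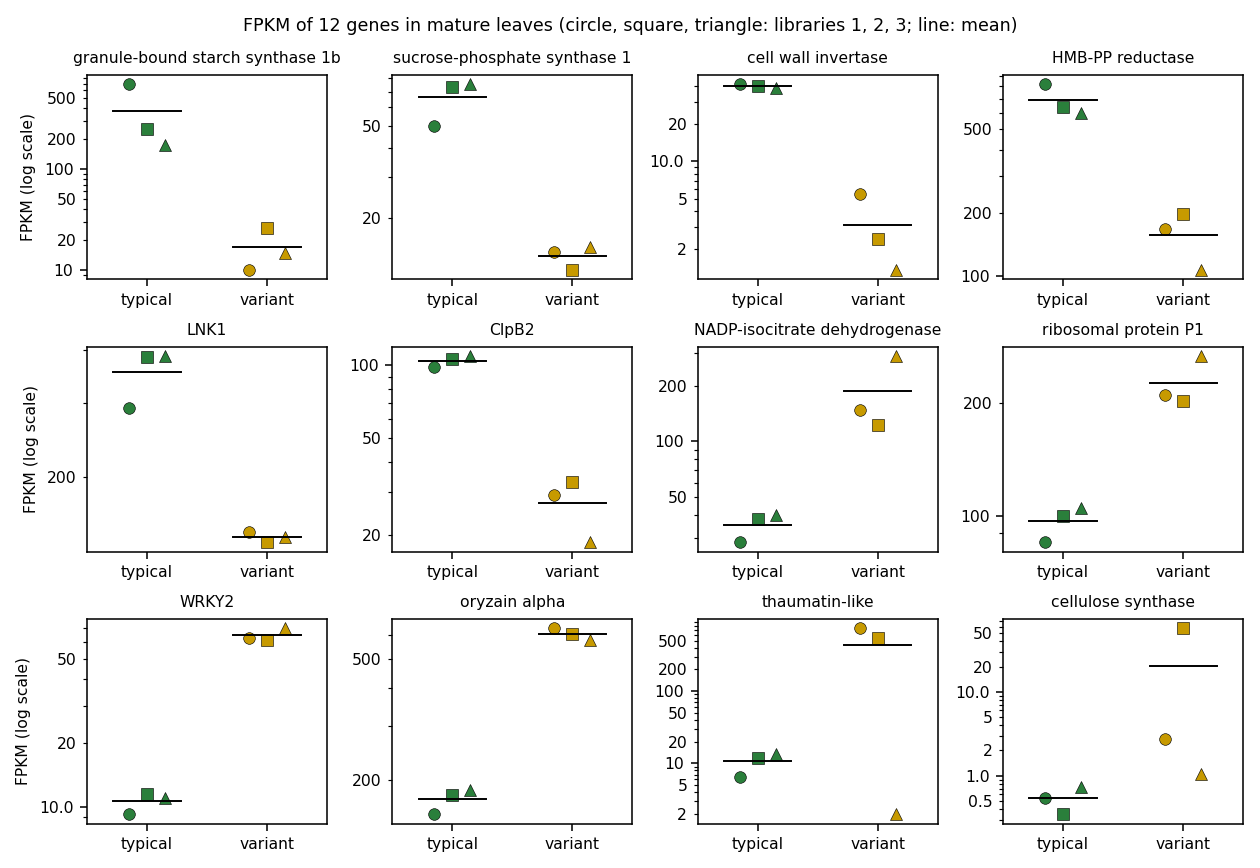
FPKM (log axis) of 12 genes in the 3 typical (green) and 3 variant (yellow) mature-leaf libraries, with circle, square and triangle for libraries 1, 2 and 3 and a line at the group mean. Granule-bound starch synthase 1b falls from between 174.6 and 694.2 to between 9.99 and 26.3 FPKM, the thaumatin-like gene is high in variant mature 1 and 2 only, and the cellulose synthase gene in variant mature 2.

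Photorespiration genes were more often lower. Of 48 photorespiration genes (52 in the table), 21 were lower and 4 higher, and 17 and 5 without variant mature 3. Mitochondrial serine hydroxymethyltransferase 1 (PH02Gene12525), which joins glycine units into serine, had 753.1, 747 and 736.6 FPKM in the typical and 321, 347.1 and 101.5 FPKM in the variant libraries. Typical libraries lay within a narrow range and all variant libraries were lower, with a log2 fold change of -1.85 ± 0.34 (edgeR adjusted p = 0.00148). A glutamate:glyoxylate aminotransferase (PH02Gene45921) fell by 1.24 (edgeR adjusted p = 0.00274). A gene for GLO3 (PH02Gene08897), a form of the hydroxy-acid oxidase, had 7.31, 7.94 and 7.7 FPKM in the typical and 13.4, 18.2 and 12.3 FPKM in the variant libraries. Its edgeR adjusted p was 0.0422, and passed only when variant mature 3 was the library left out (0.0222 against 0.0555 to 0.207).

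The plastid form of glutamine synthetase (PH02Gene00428), which recaptures photorespired ammonium, stood at 506, 601.3 and 626.1 FPKM in the typical and 193.8, 233.2 and 93.1 FPKM in the variant libraries. It fell by 2.04 on the log2 scale (edgeR adjusted p = 0.000506), and its partner, ferredoxin-dependent glutamate synthase (PH02Gene38234), by 1.48 (edgeR adjusted p = 0.0116). A cytosolic glutamine synthetase (PH02Gene04855), the form used for nitrogen transport, had 71.8, 61.1 and 62.5 FPKM in the typical and 125.9, 135.4 and 147.5 FPKM in the variant libraries. The groups did not overlap, and it rose by 0.74 (edgeR adjusted p = 0.00161). Over the 180 nitrogen genes tested (210 in the table), 46 were higher and 12 lower, and 38 and 13 without variant mature 3, and the lower count was 6 without typical mature 2 and 7 without typical mature 3.

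Genes of the citrate cycle and respiration were more often higher. Of 113 (121 in the table), 35 were higher and 7 lower, and 32 and 7 without variant mature 3. NADP-dependent isocitrate dehydrogenase (PH02Gene17336), which makes 2-oxoglutarate for amino acid synthesis, had 28.6, 38 and 40 FPKM in the typical and 147.1, 122.3 and 289.2 FPKM in the variant libraries. The lowest variant library stood far above the highest typical one, and the log2 fold change was 2.06 ± 0.23 (edgeR adjusted p = 5.46e-05). Cytosolic aconitate hydratase (PH02Gene25016), the step before it, had 61.6, 60.9 and 61.7 FPKM in the typical and 160.5, 172.7 and 213 FPKM in the variant libraries and rose by 1.24 (edgeR adjusted p = 3.26e-05). Some members fell. The chloroplast NADP-malate dehydrogenase (PH02Gene36806), which exports reducing power, fell by 2.23 (edgeR adjusted p = 0.000522). A peroxisomal malate dehydrogenase (PH02Gene13436) fell by 1.30 (edgeR adjusted p = 0.00734). The alternative oxidase gene, ubiquinol oxidase 1c (PH02Gene08774), which lets mitochondria burn electrons without making ATP, fell from 32.8, 56.2 and 54 FPKM to 20.4, 19.7 and 9.59 FPKM (log2 fold change -1.82 ± 0.29, edgeR adjusted p = 0.000595).

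Cytosolic ribosomal protein genes rose as a large group. Of 296 (311 in the table), 177 were higher and 6 lower (59.8% and 2.03%), and 144 and 8 without variant mature 3. The median log2 fold change was 0.63, and 0.5 without that library, and 42 were higher and 0 lower on the mature libraries alone. The list took 0.813%, 1.00% and 1.04% of counts in the typical and 1.56%, 1.5% and 2.06% in the variant libraries. The acidic stalk protein P1 (PH02Gene42454) had 85.1, 99.8 and 105.3 FPKM in the typical and 209.9, 202.7 and 267.5 FPKM in the variant libraries, a log2 fold change of 0.91 ± 0.13 (edgeR adjusted p = 0.000229). The small-subunit protein S18 (PH02Gene11873) rose by 0.83 (edgeR adjusted p = 0.0022). Not all members followed. An S8-like gene (PH02Gene42751) had 191.4, 205.5 and 207.8 FPKM in the typical and 168, 173.8 and 205.8 FPKM in the variant libraries, which overlapped, and relative to the bulk of genes it fell by 0.47 (edgeR adjusted p = 0.0151), a call that was lost without variant mature 1 (0.0587). Ribosome biogenesis genes, which process the RNA of new ribosomes, depended more on variant mature 3, with 24 of 85 higher and 3 lower (90 in the table) but 12 and 2 without that library, 14 higher without typical mature 1, and 0 higher and 2 lower on the mature libraries alone. The biogenesis protein RLP24 (PH02Gene36419) rose by 0.84, or 0.49 without variant mature 3 (edgeR adjusted p = 0.00541 and 0.00916), while the TSR3 homolog (PH02Gene39971), which modifies small-subunit RNA, fell from 43.5, 45.7 and 43.7 FPKM to 21.6, 20 and 26.6 FPKM (log2 fold change -1.29 ± 0.16, edgeR adjusted p = 0.000101).

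Clock and light signalling genes were more often lower. Of 123 (126 in the table), 36 were lower and 12 higher, and 43 and 12 without variant mature 3, and 22 lower and 3 higher on the mature libraries alone. The list median was -0.25 in the count fit, where that of all genes was 0.087, and 0.03 on log2(FPKM + 1), where that of all genes was 0.181, so it lay below the median of all genes on both scales while its sign differed. A gene for LNK1 (PH02Gene34438), a morning coactivator of clock genes, had 291.6, 384 and 387 FPKM in the typical and 148.4, 140.3 and 144.1 FPKM in the variant libraries. The variant libraries were alike, and the log2 fold change was -1.61 ± 0.17 (edgeR adjusted p = 3.23e-05). Another LNK1 gene (PH02Gene08538) fell by 1.80 (edgeR adjusted p = 2.83e-05), and B-box zinc finger protein 19 (PH02Gene35355) by 1.20 (edgeR adjusted p = 0.000114). The evening gene TOC1-like (PH02Gene18684) went the other way, with 14, 6.53 and 6.05 FPKM in the typical and 34.6, 25.7 and 123.8 FPKM in the variant libraries. It rose by 2.42, or 1.44 without variant mature 3 (edgeR adjusted p = 0.0019 and 0.00272). Adagio-like protein 3 (PH02Gene44375), a blue-light receptor of the clock, rose by 2.14 (edgeR adjusted p = 0.000196). The hour at which each plant was sampled is not given in the sources used here.

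WRKY and NAC transcription factors were more often higher, with 25.2% and 29.2% of the members called higher, while the 18.6% of ERF genes lay near the 14.9% over all genes. Of 123 WRKY genes (137 in the table), 31 were higher and 2 lower, and 29 and 0 without variant mature 3, with 19 higher without typical mature 2 and 18 without typical mature 3. Of 113 NAC genes (125 in the table), 33 were higher and 2 lower, and 34 and 3 without it. Of 113 ERF genes (154 in the table), 21 were higher and 3 lower, and 28 and 2 without it. On the mature libraries alone, 15 WRKY, 16 NAC and 7 ERF genes were higher and 0 were lower in any of these families.

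WRKY2 (PH02Gene25907) had 9.28, 11.6 and 11.1 FPKM in the typical and 62.2, 61.2 and 69.6 FPKM in the variant libraries. All 3 variant libraries stood far above the typical ones, with a log2 fold change of 2.27 ± 0.26 (edgeR adjusted p = 6.47e-05). WRKY60 (PH02Gene04800), of the family that tunes defence, had 11.1, 22.1 and 24.6 FPKM in the typical and 68.7, 66.6 and 65.6 FPKM in the variant libraries and rose by 1.5 (edgeR adjusted p = 0.00261). The NAC gene 48-like (PH02Gene10707) had 20.7, 11.9 and 10.6 FPKM in the typical and 66.3, 57.6 and 172.7 FPKM in the variant libraries. It rose by 2.42, or 1.78 without variant mature 3 (edgeR adjusted p = 0.00135 and 0.00331). Its relative NAC48 (PH02Gene07883) rose by 2.05 (edgeR adjusted p = 0.000705) and the NAC gene 83-like (PH02Gene08630) by 0.93 (edgeR adjusted p = 0.00286). The ethylene-responsive factor 1 gene named (PH02Gene09592) rose by 1.28 (edgeR adjusted p = 0.000183). The Myb-related protein Zm38 (PH02Gene24097), named after a maize repressor of phenylpropanoid genes, stood at 4.58, 4.05 and 3.88 FPKM in the typical and 35.3, 18.1 and 165.1 FPKM in the variant libraries, and rose by 3.77, or 2.37 without variant mature 3 (edgeR adjusted p = 0.000554 and 0.000173).

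Defence genes were more often higher in number but not in summed level. Of 205 (234 in the table), 65 were higher and 4 lower, and 79 and 3 without variant mature 3, with 38 higher without typical mature 2. The list took 0.153%, 0.548% and 0.543% of counts in the typical and 0.400%, 0.432% and 0.175% in the variant libraries, with typical mature 1 and variant mature 3 the lowest. The thaumatin-like gene PH02Gene45602, of a family of pathogenesis-related proteins, had 6.56, 12 and 13.5 FPKM in the typical and 743.2, 543.5 and 1.98 FPKM in the variant libraries. Variant mature 1 and 2 were far above every typical library, and variant mature 3 below them all. The log2 fold change was 5.03 ± 1.2 with all libraries, 5.62 ± 0.55 without variant mature 3 and 4.40 without variant mature 1 (edgeR adjusted p = 0.00727, 1.91e-05 and at most 0.0319 without any other library). Another gene with the same description (PH02Gene45599), also on scaffold 12, was likewise high in variant mature 1 and 2, with 14.9, 8.09 and 7.07 FPKM in the typical and 385.6, 286.5 and 8.85 FPKM in the variant libraries, and variant mature 3 lay within the typical range. Copies of this kind may share reads, so their separate values are uncertain. Its log2 fold change was 4.17 ± 0.96, or 3.57 without variant mature 1 (edgeR adjusted p = 0.00596 with all libraries).

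Other defence genes fell. A Bowman-Birk trypsin inhibitor (PH02Gene20224), a wound-induced blocker of insect proteases, had 267.9, 2563 and 2799 FPKM in the typical and 171, 418 and 2.23 FPKM in the variant libraries, which overlapped because typical mature 1 was low. Its log2 fold change was -3.51 ± 1.09 (edgeR adjusted p = 0.0287), and -4.74 without variant mature 2, and it was not called when typical mature 2, typical mature 3 or else variant mature 1 was left out (0.0701, 0.0738 and 0.0829). The ent-kaurene synthase-like gene 3 (PH02Gene01756), a diterpene cyclase, fell by 2.60 (edgeR adjusted p = 0.000562), from 20.8, 21.9 and 23 FPKM to 4.36, 5.83 and 3.23 FPKM. Jasmonate genes lay near the shares over all genes, with 11 higher (14.1%) and 9 lower (11.5%) of 78 (88 in the table). Allene oxide synthase 2 (PH02Gene19170), the committed step of jasmonate synthesis, had 2.93, 2.25 and 1.91 FPKM in the typical and 26.1, 37.5 and 22.3 FPKM in the variant libraries. The groups lay far apart, and the log2 fold change was 3.27 ± 0.29 (edgeR adjusted p = 1.08e-05). A 12-oxophytodienoate reductase 1-like gene (PH02Gene25747) rose by 2.75 (edgeR adjusted p = 0.00143). The chloroplast lipoxygenase 2.3 (PH02Gene44707), upstream of both, fell by 1.83 (edgeR adjusted p = 0.0209), a call lost without typical mature 2 or 3 (0.0633 and 0.0676).

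**Figure D4:**
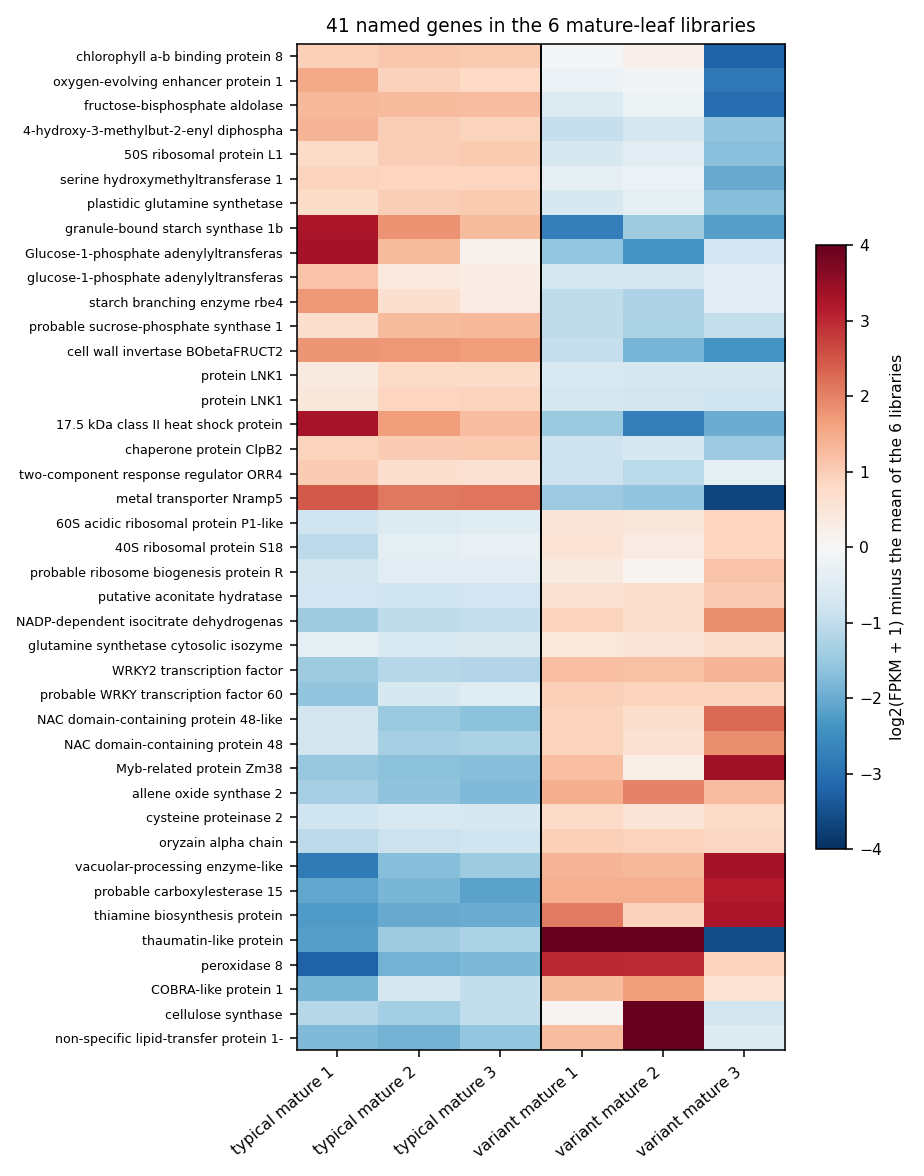
log2(FPKM + 1) of 41 named genes in the 6 mature-leaf libraries, shown as the difference from each gene's mean over the 6 libraries, with colours limited to -4 and 4. The 19 genes at the top are lower and the others higher in the variant, and variant mature 3 is set apart in the antenna, aldolase and thaumatin-like genes and variant mature 2 in the cellulose synthase and lipid-transfer genes.

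Heat shock genes were more often lower. Of 126 heat shock genes (134 in the table), 38 were lower and 9 higher, and 37 and 7 without variant mature 3, and 19 lower and 4 higher on the mature libraries alone. A class II small heat shock protein (PH02Gene24897), which holds unfolding proteins in solution, had 202.8, 65.5 and 48 FPKM in the typical and 6.45, 2.13 and 4.27 FPKM in the variant libraries. Typical mature 1 was the highest, and the log2 fold change was -4.99 ± 0.57, or -4.0 without it (edgeR adjusted p = 6.55e-05 with all libraries). Chloroplast ClpB2 (PH02Gene20837), which pulls aggregated proteins apart, had 98.1, 106.7 and 109.4 FPKM in the typical and 29.1, 33 and 18.6 FPKM in the variant libraries, a log2 fold change of -2.27 ± 0.23 (edgeR adjusted p = 2.73e-05). Hsp90 (PH02Gene07542) fell by 1.13 and small heat shock protein 2 (PH02Gene04134) by 1.65 (edgeR adjusted p = 0.000278 and 0.00203). The 70 kDa peptidyl-prolyl isomerase (PH02Gene36316), a partner of Hsp90, had a log2 fold change of -4.04 ± 0.4, or -3.35 without typical mature 1 (edgeR adjusted p = 2.43e-05 with all libraries). The mitochondrial 70 kDa heat shock protein (PH02Gene12614) rose instead, from 4.66, 6.53 and 6.98 FPKM to 20.4, 31.7 and 16.5 FPKM (log2 fold change 1.61 ± 0.21, edgeR adjusted p = 0.000153).

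Of 63 oxygen-scavenging genes (65 in the table), 16 were lower and 6 higher, and 13 and 5 without variant mature 3. The numbers came to 9 lower and 8 higher without typical mature 1, and to 4 and 4 on the mature libraries alone, so no direction is read from this list. Superoxide dismutase 1 (PH02Gene10444) fell by 0.91 and a peroxisome type ascorbate peroxidase (PH02Gene33594) by 0.71 (edgeR adjusted p = 0.000952 and 0.00376). The catalases moved apart. Catalase-1 (PH02Gene34256) had 474.8, 436.8 and 425.2 FPKM in the typical and 311.8, 362.5 and 143.2 FPKM in the variant libraries and fell by 1.03 (edgeR adjusted p = 0.0335), but passed only when variant mature 2 was the library left out (0.0514 to 0.0838 without any other). Catalase isozyme B (PH02Gene29448) had 28.4, 27.4 and 29.5 FPKM in the typical and 73.5, 51.2 and 79.7 FPKM in the variant libraries and rose by 0.93 (edgeR adjusted p = 0.0012).

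Wall genes were higher in the variant, and for several of them variant mature 2 decided the value. Of 118 secondary wall genes (137 in the table), 60 were higher and 1 lower, and 64 and 1 without variant mature 3. Of 145 wall growth genes (187 in the table), 42 were higher and 1 lower, and 53 and 0 without it. The higher counts came to 39 and 26 without variant mature 2, 38 and 19 without typical mature 2, and 38 and 22 without typical mature 3. Higher calls over all genes also fell in these fits, from 5595 to 4882, 3718 and 4067. Of the calls in either direction, 29 secondary wall and 16 wall growth genes were called in all 6 fits that left out a library. On the mature libraries alone the numbers were 8 higher and 1 lower, and 16 and 0. Secondary wall genes took 0.0413%, 0.0536% and 0.0558% of counts in the typical and 0.0977%, 0.250% and 0.0602% in the variant libraries, with variant mature 2 the highest. Wall growth genes took 0.0280% to 0.0296% and 0.0618% to 0.132%. Many of these genes were close to 0 in typical leaves, and the median of the secondary wall list, 2.27 in the count fit, was 0.44 on log2(FPKM + 1). A cellulose synthase gene (PH02Gene30488) had 0.55, 0.347 and 0.736 FPKM in the typical and 2.71, 57.5 and 1.04 FPKM in the variant libraries. Its log2 fold change of 4.93 ± 1.06 became 1.43 without variant mature 2 (edgeR adjusted p = 0.00402 with all libraries and 0.0157 without). The fasciclin-like arabinogalactan protein 1 (PH02Gene18743), a surface protein of cells that thicken their walls, was likewise highest in variant mature 2, at 0.479, 0.435 and 0.772 FPKM in the typical and 3.12, 68.8 and 1.16 FPKM in the variant libraries, with log2 fold changes of 5.14 ± 1.08 and, without variant mature 2, 1.58 (edgeR adjusted p = 0.00357 and 0.00808).

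Several wall genes did not hold without variant mature 2. COBRA-like protein 3 (PH02Gene21702), which guides cellulose fibrils, went from a log2 fold change of 2.32 ± 0.66 (edgeR adjusted p = 0.0187) to 0.27 (0.482), and also lost the call without typical mature 1 or 2 (0.0575 and 0.0614). Expansin-B3 (PH02Gene02936), a wall loosener, went from 5.08 ± 1.48 (edgeR adjusted p = 0.0215) to 1.72 (0.285), stood at 6.09 without typical mature 1, and lost the call without typical mature 2 or 3 (0.0788 and 0.0737). Cellulose synthase A subunit 3 (PH02Gene49673) had 7.22, 13.4 and 13.8 FPKM in the typical and 13.2, 104.1 and 6.39 FPKM in the variant libraries, and missed the threshold at a log2 fold change of 1.57 ± 0.68 (edgeR adjusted p = 0.106), with a value of -0.57 without variant mature 2 and calls without variant mature 1 or 3 (0.0484 and 0.0118). A lipid-transfer protein 1-like gene (PH02Gene35874) stood at 2.56, 2.24 and 3.14 FPKM in the typical and 27.3, 272.9 and 7.33 FPKM in the variant libraries and rose by 4.98, or 2.36 without variant mature 2 (edgeR adjusted p = 0.00387 and 0.0212). Others were less tied to a library. COBRA-like protein 1 (PH02Gene20375) had 3.13, 8.29 and 6.37 FPKM in the typical and 34.1, 46.3 and 20.4 FPKM in the variant libraries and rose by 2.21 (edgeR adjusted p = 0.000338), and expansin-like A1 (PH02Gene00824) rose by 2.17 (edgeR adjusted p = 0.000287).

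Marker lists of other tissues were read beside these walls. The cell cycle list, with 34 higher and 9 lower of 189 (200 in the table) but 2 higher and 6 lower on the mature libraries alone, took 0.124% to 0.179% of counts in the typical and 0.130% to 0.148% in the variant libraries. The phloem list, with 2 higher and 1 lower of 39 (40 in the table), took 0.0812% to 0.120% and 0.121% to 0.126%, and the epidermis and wax list, with 37 higher and 6 lower of 135 (159 in the table), 0.302% to 0.324% and 0.401% to 0.470%. A xylem cysteine proteinase 2-like gene (PH02Gene22838), a marker of water vessels, was listed at 0 in all 3 variant libraries and was at 0.283, 0.764 and 0 FPKM in the typical ones. The part of tissue mixture in the wall result was not tested. Cyclin-B1-1 (PH02Gene37929), which drives mitosis, had 26.7, 28.5 and 28 FPKM in the typical and 21.2, 22.8 and 26.6 FPKM in the variant libraries and did not pass (edgeR adjusted p = 0.0728). Condensin complex subunit 1 (PH02Gene39360), which compacts chromosomes, fell by 1.4 (edgeR adjusted p = 0.000245), and histone H1E (PH02Gene36226) rose from 17.6, 26.9 and 26.8 FPKM to 91.9, 102.7 and 77.4 FPKM (log2 fold change 1.63 ± 0.19, edgeR adjusted p = 8.27e-05). YABBY 6 (PH02Gene21516), of a family that sets leaf polarity, rose by 1.35 (edgeR adjusted p = 0.00386).

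Phenylpropanoid and flavonoid genes moved both ways. Of 112 lignin and phenylpropanoid genes (124 in the table), 19 were higher (17%) and 7 lower (6.25%), near the 14.9% and 9.65% over all genes. Of 103 flavonoid genes (115 in the table), 23 were higher (22.3%) and 6 lower (5.83%). Cinnamoyl-CoA reductase 1 (PH02Gene01704), the entry to lignin units, had 38.1, 39 and 38.6 FPKM in the typical and 99.4, 83.8 and 109.8 FPKM in the variant libraries. Typical libraries were alike, and the gene rose by 1.01 (edgeR adjusted p = 0.000943). Dihydroflavonol 4-reductase (PH02Gene33902), on the way to anthocyanins and flavanols, had 1.61, 2.25 and 1.73 FPKM in the typical and 5.43, 8.99 and 14.5 FPKM in the variant libraries and rose by 2.04 (edgeR adjusted p = 0.000321). A putative anthocyanidin reductase (PH02Gene27994) rose by 1.35 (edgeR adjusted p = 0.00298), and flavanone 3-dioxygenase 3 (PH02Gene47944) fell by 1.84 (edgeR adjusted p = 0.000993).

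Named hormone genes moved in both directions. Of the gibberellin, cytokinin and brassinosteroid list 16.7% were higher and 8.77% lower. The auxin list had 17.7% and 6.1%, and the abscisic acid and drought list 19.1% and 13.1%. These shares were not far from the 14.9% and 9.65% over all genes, so no direction is read from the lists. ORR4 (PH02Gene21053), an early response regulator of cytokinin, had 156.3, 122.5 and 117.4 FPKM in the typical and 42.5, 35.9 and 58.5 FPKM in the variant libraries. The groups were well apart, with a log2 fold change of -1.87 ± 0.28 (edgeR adjusted p = 0.000342). An ORR4-like gene (PH02Gene42667) fell by 1.94 and an ORR6-like gene (PH02Gene00342) by 2.42 (edgeR adjusted p = 0.000476 and 0.000309). LOGL1 (PH02Gene16977), which frees active cytokinin, rose by 2.04 (edgeR adjusted p = 0.000322). Over the list of gibberellin, cytokinin and brassinosteroid genes, 19 were higher and 10 lower of 114 (133 in the table), and 12 and 12 without variant mature 3, with 11 higher without typical mature 2. The auxin synthesis gene YUCCA11 (PH02Gene12216) stood at 299.2, 254.1 and 240.9 FPKM in the typical and 97, 111.1 and 29.3 FPKM in the variant libraries and fell by 2.06 (edgeR adjusted p = 0.00387), while SAUR36-like (PH02Gene43999), of an auxin-responsive family, rose by 2.67 (edgeR adjusted p = 0.000144). Of 164 auxin genes (187 in the table), 29 were higher and 10 lower, with 17 higher without typical mature 2. The kinase SnRK2.6 (PH02Gene31022), which acts in abscisic acid signalling, fell by 1.14 (edgeR adjusted p = 3.95e-05), and protein phosphatase 2C 62 (PH02Gene12778) rose by 1.09 (edgeR adjusted p = 0.00108). Of 183 abscisic acid and drought genes (209 in the table), 35 were higher and 24 lower, and 27 and 27 without variant mature 3, with 23 higher without typical mature 2.

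Senescence and autophagy genes lay near the background as a list, and took 1.25%, 1.58% and 1.63% of counts in the typical and 1.8%, 1.44% and 1.49% in the variant libraries. Of 177 senescence and autophagy genes (208 in the table), 30 were higher (16.9%) and 10 lower, and 32 and 8 without variant mature 3. Cysteine proteinase 2 (PH02Gene03034) had 503.8, 579.2 and 569.7 FPKM in the typical and 1508, 1251 and 1506 FPKM in the variant libraries, a log2 fold change of 1.05 ± 0.17 (edgeR adjusted p = 0.000554). The oryzain alpha chain (PH02Gene45588), a papain-like protease named from rice, had 154.2, 179.1 and 185.2 FPKM in the typical and 632, 604.1 and 575.8 FPKM in the variant libraries. Its variant libraries agreed closely, with a log2 fold change of 1.49 ± 0.14 (edgeR adjusted p = 1.39e-05). A vacuolar-processing enzyme-like gene (PH02Gene40348), which activates such proteases, had 6.93, 16.3 and 19.9 FPKM in the typical and 145.2, 136.8 and 561.6 FPKM in the variant libraries and rose by 3.97, or 3.01 without variant mature 3 (edgeR adjusted p = 0.000152 and 6.85e-05). A cysteine proteinase inhibitor (PH02Gene03850), which blocks this class of protease, fell by 1.39 (edgeR adjusted p = 0.00428), and SENESCENCE-ASSOCIATED GENE 21 (PH02Gene40131) fell from 1037, 1002 and 902.4 FPKM to 682.8, 712.4 and 410 FPKM (log2 fold change -1.02 ± 0.21, edgeR adjusted p = 0.00302).

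Transport genes held some of the widest gaps. The metal transporter Nramp5 (PH02Gene20303), the manganese importer of rice roots, had 70.4, 56.1 and 56.7 FPKM in the typical and 3.85, 3.37 and 0.0439 FPKM in the variant libraries. Every variant library lay far below the typical ones, and the log2 fold change was -4.96 ± 0.8 (edgeR adjusted p = 0.000636). The vacuolar aquaporin TIP1-1 (PH02Gene03621) rose by 2.5, or 1.61 without variant mature 3 (edgeR adjusted p = 0.00227 and 0.00565), while TIP1-2 (PH02Gene34465) fell from 114.8, 264.9 and 286.9 FPKM to 67.2, 84 and 32.9 FPKM (log2 fold change -2.15 ± 0.47, edgeR adjusted p = 0.00478). Of 27 aquaporins (39 in the table), 7 were higher and 4 lower, and 4 and 4 without variant mature 3. The transporter ABCG11-like (PH02Gene02096), which exports cutin and wax precursors, rose by 1.92 (edgeR adjusted p = 0.00029). A gene described as Eceriferum-u (PH02Gene41075), of a wax gene family, fell by 2.57 (edgeR adjusted p = 0.0136).

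The widest changes over all genes, among well-counted genes whose groups did not overlap, included several outside these lists. Peroxidase 8 (PH02Gene08066), a wall peroxidase, had 0.723, 3.41 and 3.69 FPKM in the typical and 131.6, 127.8 and 29 FPKM in the variant libraries and rose by 4.92 (edgeR adjusted p = 0.000143). Carboxylesterase 15 (PH02Gene33345) had 1.51, 1.99 and 1.42 FPKM in the typical and 27.8, 27.8 and 95.1 FPKM in the variant libraries and rose by 4.59, or 3.78 without variant mature 3 (edgeR adjusted p = 1.56e-05 and 2.52e-06). A thiamine biosynthesis protein (PH02Gene43927) had 4.44, 5.48 and 5.68 FPKM in the typical and 110.6, 49.2 and 255.4 FPKM in the variant libraries and rose by 4.4, or 3.64 without variant mature 3 (edgeR adjusted p = 4.48e-05 and 1.88e-05). The gap between all typical and all variant libraries follows from the choice of genes whose groups did not overlap. A putative methyltransferase (PH02Gene23266) rose by 4.24 (edgeR adjusted p = 2.83e-05), and GAMETE EXPRESSED 1-like (PH02Gene03032), of a family first described in egg and sperm cells of other plants, by 4.54, or 3.88 without variant mature 3 (edgeR adjusted p = 0.000444 and 0.000721).

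Among the widest falls, a hydroxymandelonitrile lyase-like gene (PH02Gene15585), of enzymes that release cyanide from stored glycosides, had 70.8, 143.8 and 158.7 FPKM in the typical and 3.01, 13.1 and 0.424 FPKM in the variant libraries. Its log2 fold change was -4.77 ± 0.8, or -6.49 without variant mature 2 (edgeR adjusted p = 0.000781 with all libraries). A phosphoethanolamine N-methyltransferase 1-like gene (PH02Gene51439), of choline synthesis, fell by 4.41 (edgeR adjusted p = 0.000556). A probable 2-oxoglutarate-dependent dioxygenase (PH02Gene44662) had 542.2, 116 and 38.3 FPKM in the typical and 15.9, 25.2 and 2.06 FPKM in the variant libraries, with typical mature 1 far above the rest, and had a log2 fold change of -4.38 ± 0.9, -2.67 without typical mature 1 and -5.09 without variant mature 2 (edgeR adjusted p = 0.00313 with all libraries). No gene was listed at 0 in all libraries of a plant type while reaching 10 FPKM in each of the other.

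Genes that set variant mature 3 apart from variant mature 1 and 2 were read by the size of that departure, among genes with a mean of at least 50 FPKM over the 3 variant libraries. A 7-deoxyloganetin glucosyltransferase gene (PH02Gene41890), of a family that adds sugars to small molecules, had 0.562, 1.1 and 0.866 FPKM in the typical and 16.9, 4.32 and 138.5 FPKM in the variant libraries. It rose by 5.62 with all libraries and by 3.34 without variant mature 3 (edgeR adjusted p = 0.00357 and 0.00944), so part of the rise was shared by the group. A pirin-like gene (PH02Gene17670) had 14.8, 3.69 and 2.87 FPKM in the typical and 25.5, 15.1 and 192.4 FPKM in the variant libraries. Its rise of 3.05 (edgeR adjusted p = 0.0156) was 1.16 and no longer called without variant mature 3 (0.178), 4.26 without typical mature 1, and no longer called without typical mature 2 or 3 (0.0661 and 0.0612). Of the genes low in variant mature 3, germin-like protein 3-5 (PH02Gene50329) had 1.45, 62.7 and 70.8 FPKM in the typical and 180.6, 407.1 and 0.87 FPKM in the variant libraries, with typical mature 1 and variant mature 3 both near 0. It did not pass with all libraries, at 1.87 ± 1.23 (edgeR adjusted p = 0.283), nor without variant mature 3 (0.0584), and its value was 0.72 without variant mature 2.

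The same plant types differed in immature leaves as well, where 44.9% of genes tested were called, and the difference between the stages was tested directly with no library in common. In that test 6543 genes (17.4%) passed, 4160 (11.1%) with the more positive and 2383 (6.34%) with the more negative difference in mature leaves, and 9941 (25.9%) passed without variant mature 3. Among antenna genes 12 of 34 were more positive in mature leaves and 2 more negative, with 22 lower in mature and 29 in immature leaves. Among Calvin cycle genes 13 of 54 were more positive and 1 more negative. The secondary wall list had 44 of 118 more positive and 0 more negative. It had 60 higher and 1 lower in mature leaves, and 24 higher and 22 lower in immature ones. Immature leaves had 44.9% of all genes called against 24.5% in mature leaves, so list counts cannot be compared directly between the stages. Epidermis and wax genes had 52 of 135 more positive and 5 more negative, and cytosolic ribosome genes 4 of 296 more positive and 72 more negative. Starch genes had 5 of 86 more positive and 8 more negative.

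**Figure D5:**
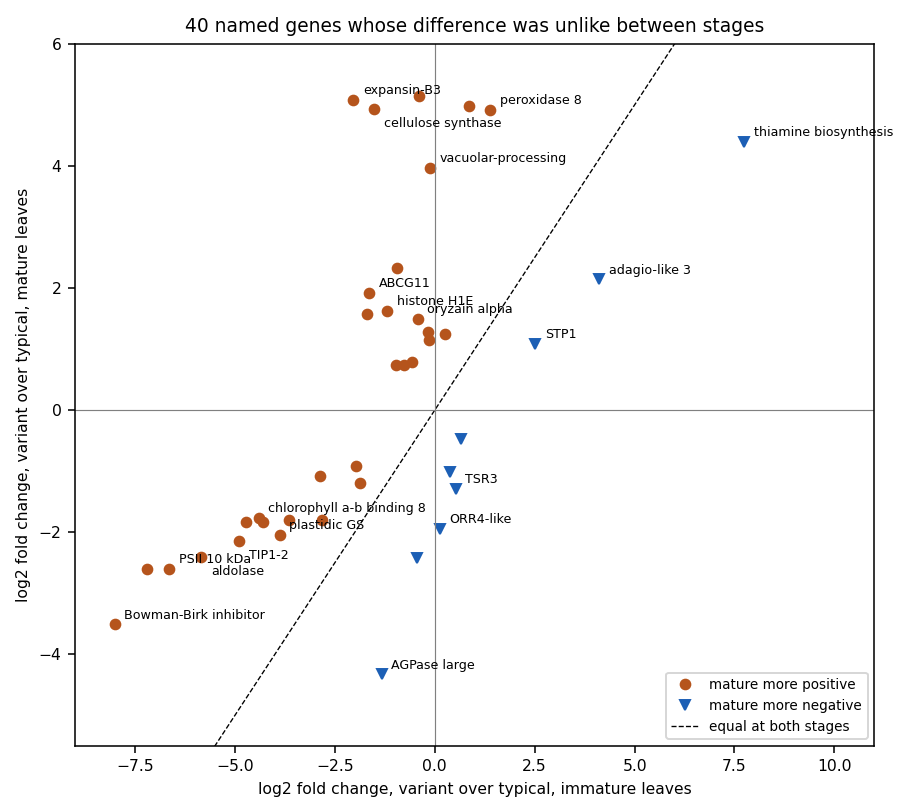
log2 fold change of variant over typical in immature (horizontal) and mature leaves (vertical) for the 40 named genes whose difference was unlike at the stages by the edgeR test, as orange circles where the mature value was the more positive and blue triangles where it was the more negative, without error bars. The dashed line marks equal values, and photosynthesis genes lie above it with both values below 0.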

How the data were processed

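The 18 libraries were read as estimated counts and as FPKM per gene, both deposited by the authors in a single table for the series. Reads were trimmed with cutadapt, checked with FastQC and quantified with Salmon, per the submitters' processing notes, and the genome build is not given in the sources used here. Estimated counts were rounded to whole numbers. edgeR 4.0.16 in R 4.3.3 kept genes by its expression filter (minimum count 10, total 15), scaled with TMM and fitted all 18 libraries in 6 groups with 12 residual degrees of freedom, and the quasi-likelihood test was adjusted by Benjamini-Hochberg over 37595 genes at 0.05. The fit without variant mature 3, each other library left out in turn, and the mature libraries alone were run alongside. Alternatives were DESeq2 1.42.0, RLE size factors, other filters, limma 3.58.1 on log2(FPKM + 1) and log2(FPKM + 0.1), and a replicate block. The script was tested on simulated data. All columns of the table belonged to these samples. FPKM carry no TMM scaling, cDNA was amplified by PCR without molecular identifiers, and the 95% Wilson intervals computed for shares of counts cover counting error only.

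The 43 gene lists were found by searching the deposited descriptions, with edits by name, and overlapping lists share genes. Members and lists were chosen with earlier results of these data known. Named genes were the 10 widest changes in each direction that held without variant mature 3, with at least 20 counts in each library, a mean of 10 FPKM and no overlap, up to 3 called members per list and direction by mean FPKM, key enzymes of each list, and the 5 genes in each direction that set variant mature 3 apart at 50 FPKM or more. A search for genes listed at 0 in all libraries of a plant type and at 10 FPKM or more in each library of the other found none. From these, 124 are described. The counting gives no strand, so overlapping and antisense genes cannot be told apart.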

Additional observations from a re-analysis of the deposited data

Results flagged for a closer look

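With 3 libraries per group, no library could be singled out by a gap test. The difference between plant types was unlike in mature and immature leaves for 6543 genes by the edgeR interaction test, 4160 more positive and 2383 more negative in mature leaves, and the mature and immature comparisons share no library. For the named genes among them, the values below are the mature minus the immature log2 fold change. Values lay below 0 at both stages and nearer 0 in mature leaves for PH02Gene01756 at 4.61, PH02Gene20224 at 4.50, PH02Gene08265 at 4.05, PH02Gene46367 at 3.43 and PH02Gene44707 at 2.90. Next were PH02Gene34465 at 2.75, PH02Gene45771 at 2.64, PH02Gene03788 at 2.46, PH02Gene00428 at 1.84 and PH02Gene41172 at 1.83. Next were PH02Gene04237 at 1.78, PH02Gene10444 at 1.06, PH02Gene08538 at 1.02 and PH02Gene35355 at 0.65. Values were above 0 in mature and below 0 in immature leaves for PH02Gene02936 at 7.13, PH02Gene30488 at 6.45, PH02Gene18743 at 5.55, PH02Gene40348 at 4.09 and PH02Gene02096 at 3.57. Next were PH02Gene21702 at 3.28, PH02Gene49673 at 3.26, PH02Gene36226 at 2.81, PH02Gene45588 at 1.91 and PH02Gene04855 at 1.69. Next were PH02Gene09591 at 1.5, PH02Gene09592 at 1.46, PH02Gene39882 at 1.37 and PH02Gene13320 at 1.29. Of the genes with unlike signs, PH02Gene02096, PH02Gene36226, PH02Gene45588, PH02Gene04855, PH02Gene09591 and PH02Gene39882 were called at both stages. The others were not, so no reversal is read for them. PH02Gene02936, PH02Gene30488, PH02Gene18743, PH02Gene21702 and PH02Gene49673 were also far higher in variant mature 2 than in the other variant mature libraries. Values were above 0 at both stages and larger in mature leaves for PH02Gene35874 at 4.13, PH02Gene08066 at 3.52 and PH02Gene25016 at 1.00. None of these was called in immature leaves. The more negative mature difference was found for PH02Gene43927 at -3.35, PH02Gene25500 at -2.99, PH02Gene42667 at -2.06, PH02Gene00342 at -1.99 and PH02Gene44375 at -1.98. Next were PH02Gene39971 at -1.81, PH02Gene37329 at -1.44, PH02Gene40131 at -1.39 and PH02Gene42751 at -1.13.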

How the results depend on the processing

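Calls of 5595 genes higher and 3629 lower became 7201 and 4432 with DESeq2, 5737 and 3505 with RLE size factors, 5362 and 3413 without a filter, and 4484 and 3669 with a stricter filter. They were 9387 and 2206 with limma on log2(FPKM + 0.1), 8763 and 2412 on log2(FPKM + 1), and 1454 and 1187 on the mature libraries alone. Leaving out each library in turn gave 3718 to 5429 higher and 2667 to 3576 lower. The interaction count of 6543 was 9941 without variant mature 3. With the replicate number as a block on the mature libraries alone, which called 1454 and 1187 without the block, 0 and 0 genes were called by edgeR, with 7324 at an unadjusted p under 0.05. Over all genes, deviations of libraries of the same number had r of -0.054, 0.034 and -0.092, and those of unlike numbers r of -0.097 to 0.115. The labels do not say what the number stands for, and a batch acting on some genes was not tested. Of the 124 named genes, 120 were called and 106 in all 6 fits that left out a library, and 50 of the 120 were not called on the mature libraries alone. Cellulose synthase A subunit 3 (PH02Gene49673) was at 1.57 with all libraries, between -0.57 without variant mature 2 and 2.08 without variant mature 3. As shares of summed FPKM in place of counts, means were 3.67% for antenna in typical leaves (3.33% of counts), 4.57% for the Calvin cycle in typical leaves (3.72%), 0.395% and 0.205% for starch in typical and variant leaves (0.653% and 0.275%), 1.73% and 3.16% for cytosolic ribosomes (0.951% and 1.71%), 0.0338% for secondary wall in typical (0.0502%) and 0.508% for defence in variant leaves (0.336%). List counts under other settings stayed within 1.5 times in 1000 of 1376 cases and moved in 376. No pair of libraries agreed within sampling noise (smallest mean chi-square per gene 10.1), so the planned summing was not run. Chosen after seeing the data, summing typical mature 2 and 3, the closest pair of the typical mature group, gave 3926 and 2884. Leaving out variant mature 3 and typical mature 1 gave 5373 and 3383. The cause was not tested.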

Other observations

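The remaining gene lists are given by their counts, beside 14.9% higher and 9.65% lower over all genes. Of 25 early tetrapyrrole genes (27 in the table), 0 were higher and 6 lower, and of 13 late chlorophyll genes (14 in the table), 0 and 3. Of 36 carotenoid genes (39 in the table), 3 were higher and 12 lower. Of 59 chloroplast pentatricopeptide genes (62 in the table), whose proteins edit and splice plastid RNA, 1 was higher and 13 lower. Of 51 iron genes (65 in the table), 7 were higher and 3 lower. Of 100 MYB genes (121 in the table), 19 were higher and 12 lower, and of 72 meristem and homeobox genes (84 in the table), 12 were higher and 5 lower, with 7 higher without typical mature 2. Of 109 histone and replication genes (118 in the table), 9 were higher and 4 lower, and the list took 0.161% to 0.171% of counts in the typical and 0.173% to 0.231% in the variant libraries.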
